A study of Mus musculus with 6 samples.

Results

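The nuclear-encoded genes of the mitochondrial respiratory chain and ATP synthase were examined in mouse embryonic stem cells. Members were the protein-coding genes whose symbols name subunits of complex I (Ndufa, Ndufb, Ndufc, Ndufs, Ndufv), complex II (Sdha to Sdhd), complex III (Uqcr, Cyc1), cytochrome c (Cycs), complex IV (Cox4i to Cox8) and complex V (Atp5). The rule took 97 of the 27179 identifiers in the count table, and 93 of them had enough counts to be tested, out of 14199 tested genes in all. The same letters also took 8 complex I assembly factors (Ndufaf), which are described separately, and 5 pseudogene rows were left out. Despite their symbols, Ndufa4 and Ndufa4l2 were counted with complex IV and not with complex I. The related protein Cox7a2l was also counted with complex IV. Ndufb1 was not analysed here.

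The study compared 3 poly(A) RNA sequencing libraries of cells with the R783H change in Trim71, a TRIM-NHL protein that binds RNA, with 3 libraries of wild-type (WT) cells. In both groups Trim71 carried a FLAG tag, the background was ES-E14TG2a, a male embryonic stem cell line, and the medium was serum-containing 2i with LIF, in which inhibitors of MEK and GSK3 favour naive pluripotency. The WT cells were thus also tagged, and untagged cells were not analysed here. Whether libraries A, B and C came from separate clones, cultures or preparations is not stated in the labels, so p-values measure the spread between these libraries, which may be technical. Counts per gene do not show a base change, so the R783H label was not checked here. In RNA from whole cultures, fewer cells of a type and less RNA per cell cannot be told apart.

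The respiratory chain passes electrons from NADH (complex I) and succinate (complex II) to coenzyme Q, then through complex III and the soluble carrier cytochrome c to oxygen at complex IV. The protons pumped on the way drive complex V, the ATP synthase. Most subunits are encoded in the nucleus and imported, whereas a small catalytic set is encoded in mitochondrial DNA. Naive embryonic stem cells respire actively, and several complex IV subunits exist as isoforms that differ between tissues.

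Total counts ran from 20894277 to 29079670 per library, and each R783H library was deeper than each WT library. A floor of 3 counts corresponds to 0.103 to 0.144 CPM, the count per 1000000 scaled counts of a library; it covers counting error only. All 10 embryonic stem cell markers examined were high, with the lowest group mean at 271 CPM. They included Pou5f1, Sox2 and Nanog, and their summed level lay between 7578 and 7717 CPM in R783H and between 7684 and 7772 CPM in WT. Within that sum, 3 of the 10 were called higher and 3 lower in R783H, or 2 and 5 with an offset for transcript length and GC content. Of 32 markers of fibroblasts, primitive endoderm, trophoblast, neural cells, mesoderm and striated muscle, 16 had enough counts to be tested. Of those, 2 were called higher and 9 lower in R783H, against 33.5% and 30.9% of all tested genes. The summed level of all 32 was 113 to 124 CPM in R783H against 188 to 197 CPM in WT. Among them Tfap2c, a trophoblast marker, had a mean of 10.1 ± 0.159 CPM in R783H against 23.8 ± 1.24 CPM in WT, and T, a mesoderm marker, was at 3.63 ± 0.230 against 13.5 ± 1.04 CPM (SD, n = 3 each). Levels within these lists reached 85.0 CPM for a neural marker, Tubb3, and 46.3 CPM for a mesoderm marker, Eomes, both in WT. The part of these markers in the results for the respiratory chain was not tested.

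Promoters of the members were read from RefSeq (GRCm38.p6), as windows of 250 bases before to 50 bases after the gene start, which were found for 78 of the 97 members. Windows were not found for 19 members, among them Ndufb4c, Ndufa2, Ndufb9, Ndufs1, Ndufaf6, Sdhc, Cyc1, Uqcrq, Uqcrc2, Uqcrb, Cox4i2, Ndufa4l2, Cox6a2, Cox8c, Cox4i1, Cox6c, Atp5a1 and Atp5mpl. NRF1, ETS factors such as GABPA, and YY1 are known regulators of respiratory genes, and each has a short recognition sequence. The palindromic NRF1 word is shown in capitals for the 5 members that hold it upstream of the start, with 10 flanking bases on either side, because it is the motif whose share among members exceeded that among all tested genes by the largest ratio. The stretches lie at chr15:102671070-102671099 (minus strand) for Atp5g2, chr5:108434430-108434459 (minus) for Atp5k, chr5:115349101-115349130 (minus) for Cox6a1, chr17:56717692-56717721 (plus) for Ndufa11 and chr4:24897960-24897989 (plus) for Ndufaf4.
Atp5g2: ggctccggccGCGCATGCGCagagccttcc
Atp5k: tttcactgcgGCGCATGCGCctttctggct
Cox6a1: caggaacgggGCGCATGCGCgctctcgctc
Ndufa11: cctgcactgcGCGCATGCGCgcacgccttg
Ndufaf4: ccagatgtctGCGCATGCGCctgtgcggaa
Of these genes Atp5g2 and Cox6a1 were called higher in R783H, and Atp5k, Ndufa11 and Ndufaf4 were called lower, so the same word occurred with both directions. Atp5j, the F6 subunit of the ATP synthase stalk, carries a YY1 and an ETS word, with first bases at -88 and -61 from the gene start. The stretches lie at chr16:84835047-84835074 and chr16:84835021-84835047 (minus strand), with the word in capitals in each. Their flanks meet, but the words are not adjacent.
Atp5j YY1: aagtgtaggaAAGATGGCggagtcttag
Atp5j ETS: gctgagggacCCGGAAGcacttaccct

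Both strands of each window were searched. The NRF1 palindrome shown in capitals was in 7 of 78 member windows (8.97%), against 2.28% of 10766 tested genes with a window and 1.07% of 27025 genes with a window. With any base in place of its T, which includes the palindrome itself, the shares were 24.4% of members and 11.2% of tested genes. The YY1 word AAGATGGC was in 14.1% of member windows against 5.1% of tested genes, and the ETS word CCGGAAG in 24.4% against 19.5%. The TATA word TATAAA was in 10.3% against 8.62%, and the E-box CACGTG in 7.69% against 11.9%. By direction in R783H, the looser NRF1 word was in 14 of 43 windows of members called lower (32.6%). It was in 3 of 11 called higher (27.3%) and 2 of 22 not called (9.09%). In the same order, the YY1 word was in 16.3%, 0% and 18.2%, and the ETS word in 27.9%, 9.09% and 22.7%. Shares by call over all tested genes were not computed, and no difference between these groups was tested. A word is a description of these letters, not evidence of binding.

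Among the 93 tested members, 50 were called lower and 12 higher in R783H, and 31 were not called (adjusted p under 0.05 in the quasi-likelihood test of edgeR, adjusted after Benjamini and Hochberg over all tested genes). The background was high: 30.9% of all tested genes were called lower and 33.5% higher, against 53.8% and 12.9% of the members. The median log2 fold change of R783H over WT was -0.17 for the members and 0.03 for all tested genes. The changes were small, since 50 of the 62 called members differed by less than 1.5-fold and 5 by at least 2-fold. Of those 5, Cycs, Ndufa8 and Ndufa12 were lower and Ndufa4l2 and Cox7b2 were higher. The groups did not overlap in CPM for 59 members (63.4%), against 68.1% of all tested genes.

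Most members have short transcripts, and short genes as a class were lower in these R783H libraries. Among tested genes whose longest annotated transcript is at most 1500 nt, 42.5% were called lower and 18.5% higher, with a median log2 fold change of -0.16. The 67 members of that length gave 47.8% and 16.4%, with a median of -0.13, so as a group they were close to other short genes. With an offset for transcript length and GC content in the fit, 41 of 92 members were called lower (44.6%) and 21 higher (22.8%), against 37.3% and 30.6% of 13760 genes. The members' median was then -0.10, and that of all genes -0.03. Of the 50 members called lower, 41 were called lower with the offset and 9 were not called. All 12 members called higher were called higher with the offset too, joined by 9 others. With scaling by library size alone, 36 members were called lower and 20 higher, against 25.4% and 40% of all tested genes, and the median over all tested genes shifted from 0.03 to 0.11.

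**Figure D1:**
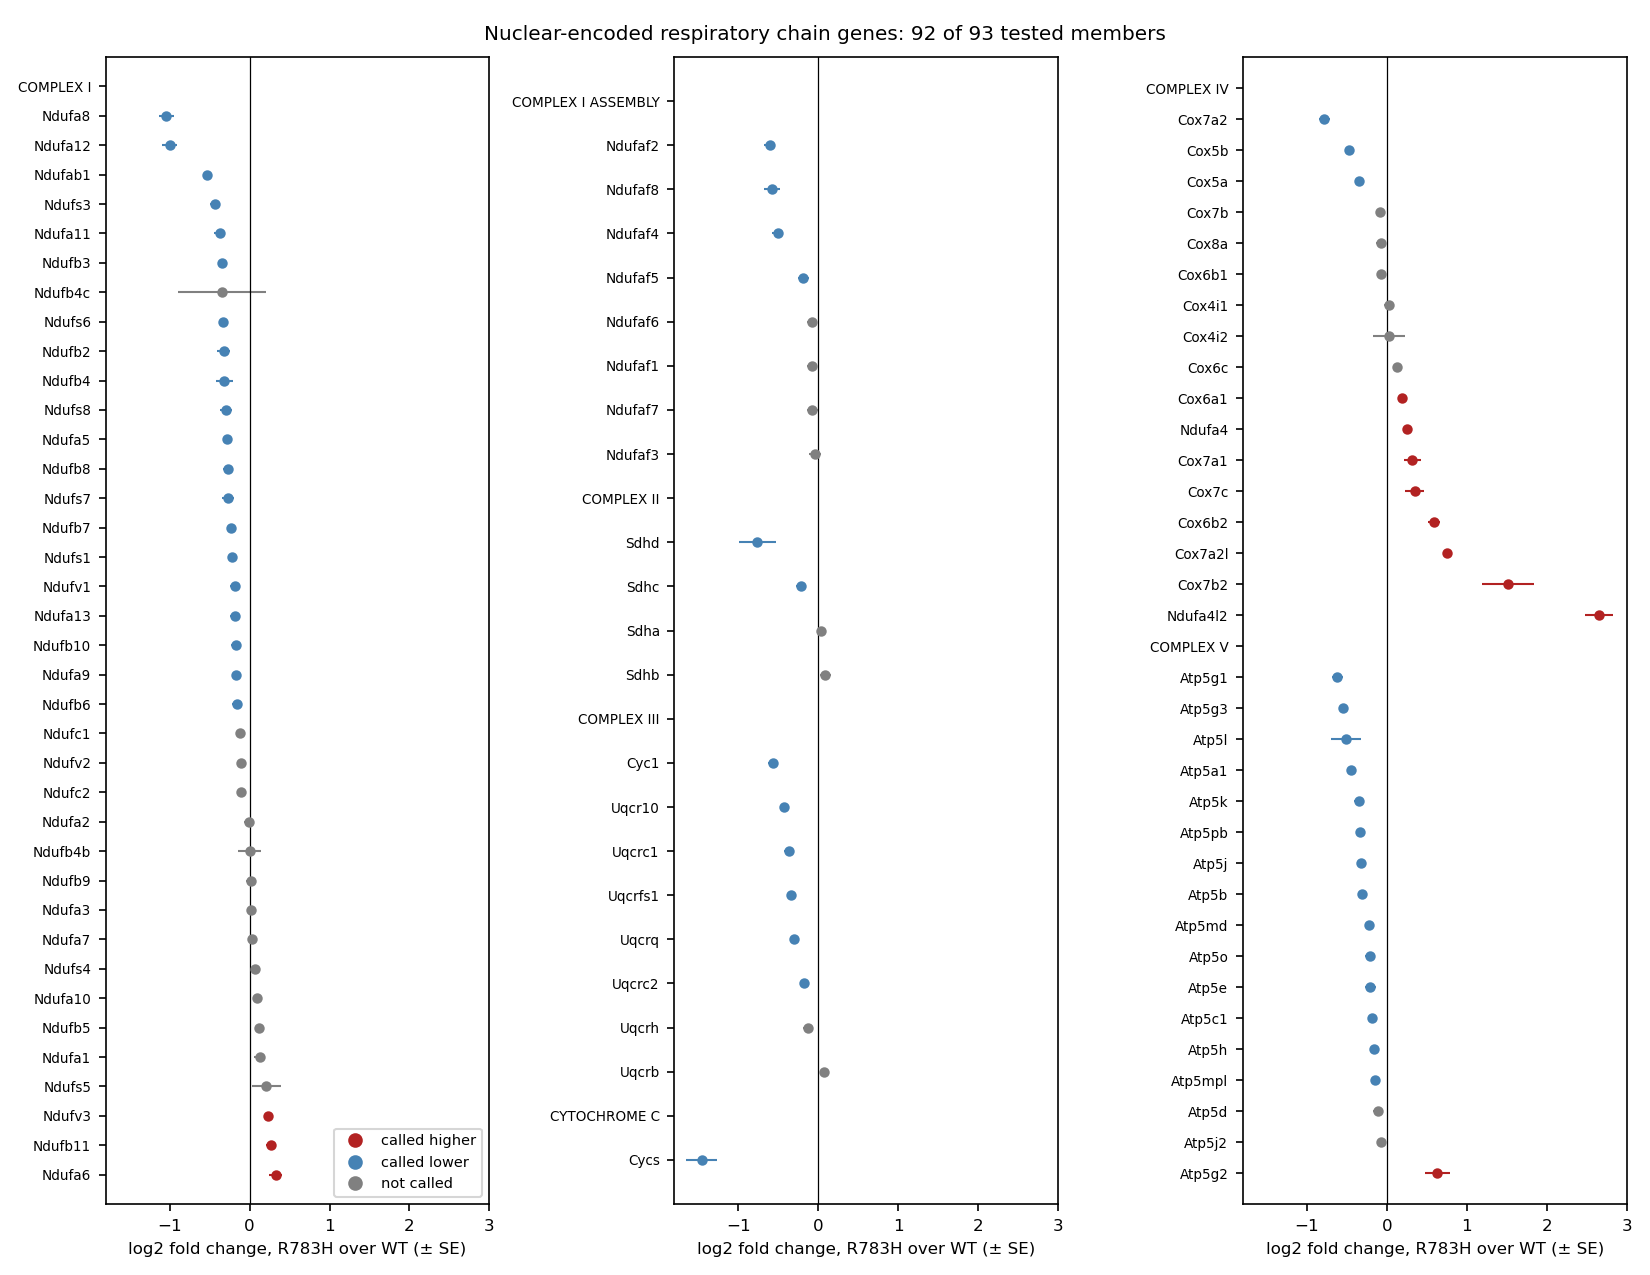
Log2 fold change of R783H over WT (x axis) for 92 of the 93 tested members (y axis), sorted within each complex; points are the edgeR estimates, bars the SE, and colours the call (blue lower, red higher, grey not called). Blue points dominate complexes III and V, while complex IV holds 8 of the 12 red points.

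**Figure D2:**
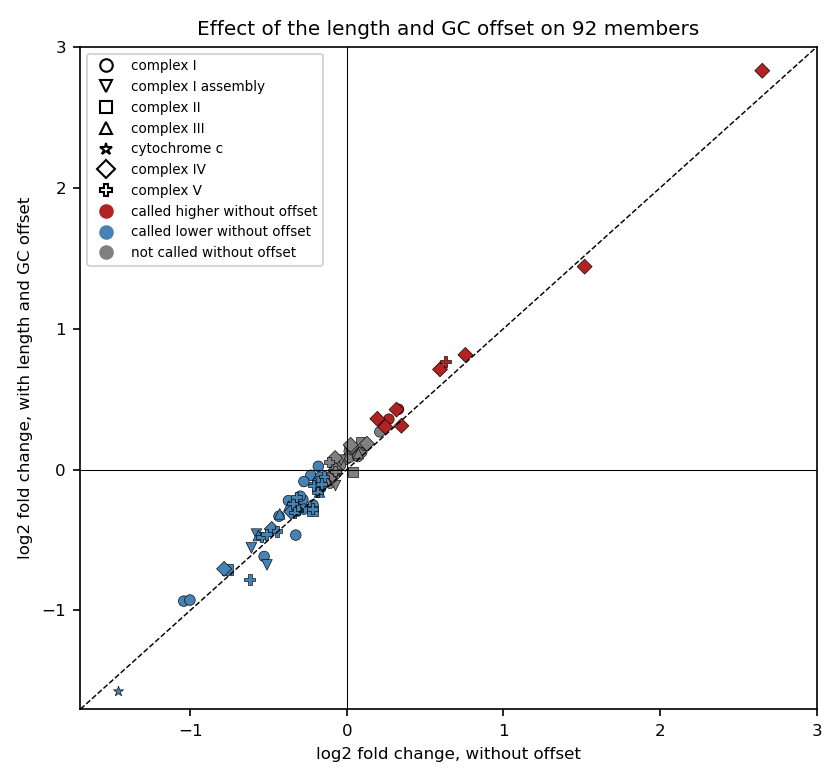
Log2 fold change with the length and GC offset (y axis) against that without it (x axis) for 92 members; marker shape gives the complex, colour the call without the offset, and the dashed line equality. Most points lie slightly above the line, and the members furthest from 0 (Cycs, Ndufa8, Ndufa12, Cox7b2, Ndufa4l2) stay far from 0 on both axes.

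R783H B differed from its group across the members. It was the highest R783H library in 70 of the 93 tested members, against 7 for A and 16 for C. The same ranks were not counted over all tested genes, so a shift of the whole library was not examined. The median log2 ratio of the members to the WT mean was -0.21 in A, -0.08 in B and -0.20 in C. Without R783H B, 60 members were called lower and 12 higher, against 34.3% and 34.7% of all tested genes, and the 60 included all 50 called lower with every library. The median of the members was then -0.24.

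Complex I takes electrons from NADH and is the largest complex of the chain. Of its 38 members, all tested, 20 were lower, 3 higher and 15 not called, with a median log2 fold change of -0.17. With the length and GC offset 14 of 37 were lower and 8 higher (median -0.085). Over all genes in that fit, 37.3% were lower and 30.6% higher (median -0.03). With library size alone 14 of 38 were lower and 7 higher (median -0.087), against 25.4% and 40% of all tested genes. The 2 members with the largest decreases were the accessory subunits Ndufa8 and Ndufa12. Ndufa8 (Entrez 68375), a cysteine-rich accessory subunit on the intermembrane-space side, was at 7.45, 9.51 and 8.85 CPM in R783H A, B and C and at 18.3, 17.7 and 17.2 CPM in WT A, B and C. Every R783H library was well below every WT library, and the log2 fold change was -1.04 (SE 0.09, edgeR adjusted p = 2.82e-06). Ndufa12 (Entrez 66414), an accessory subunit of the NADH-oxidising arm, was at 13.2, 16.6 and 17.8 CPM in R783H and at 33.2, 30.1 and 32 CPM in WT. The groups were far apart again, at a log2 fold change of -1.0 (SE 0.10, edgeR adjusted p = 5.20e-06). Ndufa12 has an annotated near-identical copy, Gm15920, so its count depends on how the authors' counting treated shared reads.

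Ndufab1, the mitochondrial acyl carrier protein and also a complex I subunit, was at 25.4, 26 and 24.1 CPM in R783H and at 34.9, 37.5 and 36.4 CPM in WT. All R783H values lay below all WT values, with a log2 fold change of -0.53 (SE 0.06, edgeR adjusted p = 1.46e-05). Of the 7 core subunits, which carry the catalytic centres, 5 were lower and 2 not called, with a median of -0.22. With the offset 3 were lower, and with library size alone 4. Among all genes 30.9% were lower, or 37.3% with the offset and 25.4% with library size alone. Ndufs3 (Entrez 68349), a core subunit of the peripheral arm, was at 38.4, 40.4 and 36.9 CPM in R783H against 55.1, 53.0 and 48.1 CPM in WT, with no overlap and a log2 fold change of -0.43 (SE 0.06, edgeR adjusted p = 1.08e-04). Ndufs3 has an annotated near copy, Gm12251, with a match over 75.7% of its transcript. Ndufs1, the iron-sulphur subunit, was lower by a smaller amount, at -0.22 (SE 0.04). It falls outside the rule for named genes and was picked after its values were seen.

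The complex I members called higher were Ndufa6, Ndufb11 and Ndufv3, all accessory subunits, also named after their values were seen. Their log2 fold changes were 0.33 (SE 0.08), 0.27 (SE 0.06) and 0.23 (SE 0.05), and the groups did not overlap in any of them. The level of Ndufa7, an accessory subunit with the highest CPM per kb of transcript in complex I (251 CPM per kb over all libraries), was 129, 144 and 129 CPM in R783H and 134, 126 and 133 CPM in WT. The groups overlapped, and Ndufa7 was not called (log2 fold change 0.03, SE 0.05). The range over all complex I members was -1.04 to 0.33.

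Assembly factors build the complexes without staying in them. Of the 8 Ndufaf members, 4 were lower and 4 were not called, against 30.9% lower and 33.5% higher over all tested genes. With the length and GC offset 3 were lower, against 37.3% of all genes. Ndufaf2, an assembly factor that is a paralogue of Ndufa12, was at 17.1, 17.5 and 16.0 CPM in R783H and at 25.5, 26.6 and 25.1 CPM in WT. The groups were far apart, with a log2 fold change of -0.61 (SE 0.06, edgeR adjusted p = 1.06e-05). The mean of Ndufaf8 was 9.71 ± 0.485 CPM in R783H against 14.5 ± 1.81 CPM in WT (SD, n = 3 each), with a log2 fold change of -0.58 (SE 0.10, edgeR adjusted p = 3.87e-04).

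Complex II, succinate dehydrogenase, links the citric acid cycle to the chain and is wholly nuclear-encoded. Its catalytic subunits were not called. Sdha, the flavoprotein, was at 398, 427 and 385 CPM in R783H and 397, 396 and 382 CPM in WT, and the groups overlapped (log2 fold change 0.04, SE 0.05). Sdhb, the iron-sulphur subunit, was at 121, 142 and 118 CPM in R783H and 120, 120 and 119 CPM in WT, where the one value that stood apart was that of R783H B (0.09, SE 0.07). With the length and GC offset Sdhb was called higher, at 0.20.

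Both membrane anchors of complex II were lower. Sdhc was at 130, 147 and 127 CPM in R783H and 157, 157 and 156 CPM in WT, without overlap, and its log2 fold change was -0.22 (SE 0.06, edgeR adjusted p = 0.00513). Sdhd was counted at a very low level, 25, 20 and 32 counts in R783H and 27, 34 and 37 in WT, which is 0.832, 0.705 and 1.08 CPM against 1.34, 1.39 and 1.73 CPM. Its log2 fold change was -0.76 (SE 0.23, edgeR adjusted p = 0.0124), and the call was lost without WT C. The count of Sdhd per kb of transcript was 0.958 CPM, against 46.0 to 137 CPM per kb for the other 3 subunits of the same complex; the part of counting or annotation in that gap was not tested.

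Complex III transfers electrons from coenzyme Q to cytochrome c. Of 8 tested members, 6 were lower and 2 not called, with a median log2 fold change of -0.32. The shares over all tested genes were 30.9% lower and 33.5% higher. The 9th, Uqcr11, had 0 counts in all 6 libraries, against a floor of 3 counts. Uqcr11 has 2 annotated near-identical copies, Gm11628 and Gm16418, and the part of shared reads in its 0 counts was not tested. Cyc1 (Entrez 66445), cytochrome c1, was at 224, 253 and 223 CPM in R783H and 356, 354 and 325 CPM in WT. The groups were far apart, with a log2 fold change of -0.56 (SE 0.06, edgeR adjusted p = 8.27e-06). Uqcrfs1, the Rieske iron-sulphur protein, was at 129, 138 and 133 CPM in R783H and 175, 168 and 163 CPM in WT. It was lower in each R783H library than in any WT library, at -0.34 (SE 0.05, edgeR adjusted p = 7.26e-05). The catalytic subunits encoded in the nucleus were thus both lower.

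The small subunit Uqcr10 was at 86.5, 96.8 and 87.6 CPM in R783H and 121, 124 and 119 CPM in WT. The groups did not overlap, and its log2 fold change was -0.43 (SE 0.05, edgeR adjusted p = 3.04e-05). Uqcrc1 (Entrez 22273), a core protein and the member with the highest CPM per kb in complex III (292), was at 398, 466 and 398 CPM in R783H and 561, 545 and 523 CPM in WT. It was lower by -0.37 on the log2 scale (SE 0.06, edgeR adjusted p = 3.05e-04), with R783H B nearest to WT. The 2 tested members that were not called, Uqcrh and Uqcrb, named here because they complete the complex, were at -0.13 (SE 0.06) and 0.07 (SE 0.05). With the length and GC offset 6 members were lower and 1, Uqcrb, was higher, against 37.3% and 30.6% of all genes. With library size alone 5 were lower and 1 higher, against 25.4% and 40% of all tested genes.

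Cytochrome c itself was counted at a low level. Cycs (Entrez 13063), the somatic form, was at 1.70, 1.94 and 2.30 CPM in R783H and 6.63, 5.67 and 4.03 CPM in WT, from 51, 55 and 68 counts against 134, 139 and 86 counts. No R783H library reached the lowest WT library, and the log2 fold change was -1.46 (SE 0.19, edgeR adjusted p = 5.59e-05). The call held in every alternative tried. A sequence search found near copies of parts of Cycs in 12 other annotated genes (at least 95% identity over at least 100 nt). The longest match covered 30.3% of the transcript. The 12 include other named genes such as Topbp1 and Man2a2, so not all are copies of Cycs. Counts of Cycs are uncertain to the extent that shared reads were dropped or split.

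**Figure D3:**
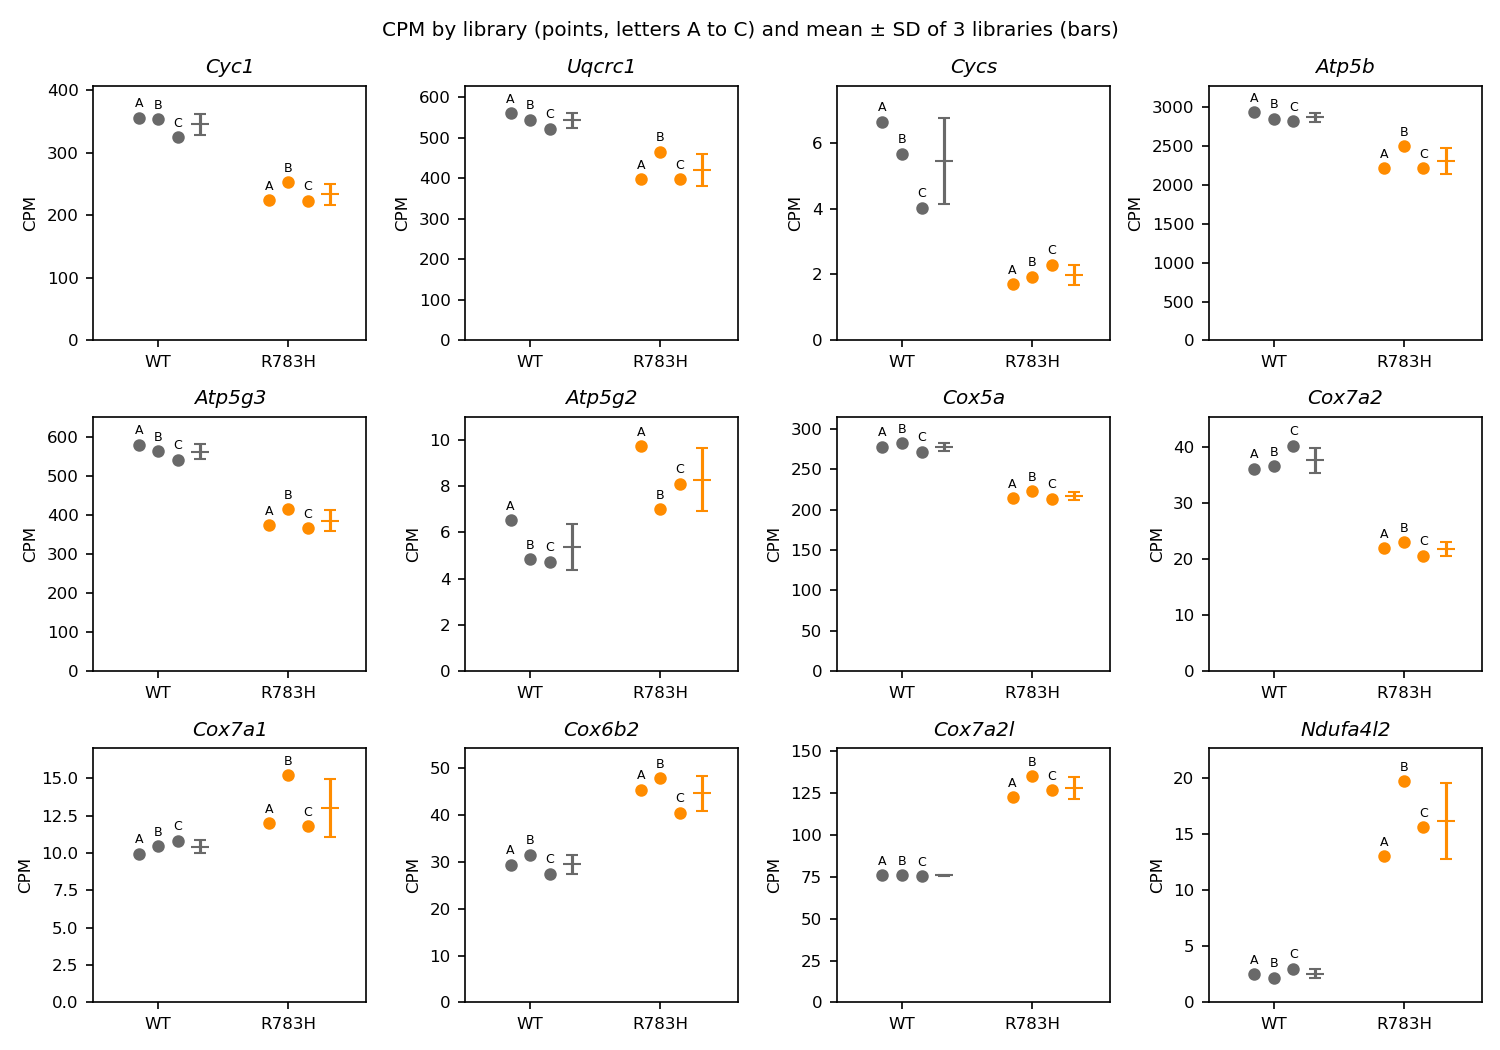
CPM (y axis, from 0) of 12 members in the 6 libraries; points are libraries with their letters, grey for WT and orange for R783H, and the dash with bars is the mean ± SD of 3 libraries. Cyc1, Uqcrc1, Cycs, Atp5b, Atp5g3, Cox5a and Cox7a2 are lower in every R783H library, and Atp5g2, Cox7a1, Cox6b2, Cox7a2l and Ndufa4l2 are higher.

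Complex IV, cytochrome c oxidase, held most of the members called higher. Ndufa4, Ndufa4l2 and Cox7a2l were counted in it, and all 3 were called higher. Of the 17 tested members of complex IV, 8 were higher, 3 lower and 6 not called, with a median log2 fold change of 0.13. The shares over all tested genes were 33.5% higher and 30.9% lower. With the length and GC offset 10 were higher and 3 lower, against 30.6% and 37.3% of all genes. The 11 subunits found in most tissues split evenly, with 3 higher and 3 lower, or 5 and 3 with the offset. Without the offset each direction held 27.3% of them, near the shares over all tested genes. Of the 9 tissue isoforms and paralogues, 6 could be tested, and 5 of those were higher and 1, Cox4i2, was not called, with a median of 0.68. Whether complex IV differed from the other complexes was not tested.

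The 3 lower members were Cox7a2, Cox5b and Cox5a. Cox7a2, the widely expressed isoform of subunit 7a, was at 22.0, 23.0 and 20.6 CPM in R783H and 36.1, 36.6 and 40.2 CPM in WT. The groups were far apart, with a log2 fold change of -0.78 (SE 0.07, edgeR adjusted p = 2.09e-06). Cox5b and Cox5a, subunits on the matrix side named after their values were seen, were at -0.48 (SE 0.05) and -0.35 (SE 0.04).

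Cox7a1, the heart and muscle isoform of subunit 7a, was at 12.0, 15.2 and 11.8 CPM in R783H and 9.95, 10.5 and 10.8 CPM in WT. Its values were higher in R783H without overlap, at a log2 fold change of 0.32 (SE 0.11, edgeR adjusted p = 0.0218), but the call was lost without R783H B, without WT A or without WT B. Cox7a2l, a related protein that joins complexes III and IV into supercomplexes, was at 123, 135 and 127 CPM in R783H and 76.0, 75.8 and 75.5 CPM in WT. The WT values were almost equal and the R783H values all higher, with a log2 fold change of 0.76 (SE 0.05, edgeR adjusted p = 3.23e-07). It has an annotated near copy, Gm6969. The 3 related genes therefore did not move together.

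Ndufa4l2 (Entrez 407790), a paralogue of the complex IV subunit Ndufa4 that is known as a hypoxia-induced gene, showed the largest change of all members. It was at 13, 19.8 and 15.7 CPM in R783H and 2.52, 2.20 and 3.00 CPM in WT, from 392, 561 and 464 counts against 51, 54 and 64. The groups were far apart, at a log2 fold change of 2.65 (SE 0.18, edgeR adjusted p = 3.98e-07). Its exons overlap those of Shmt2 on the opposite strand, and whether strand was used in counting is not given in the sources used here. Ndufa4 itself was at 273, 275 and 282 CPM in R783H and 238, 235 and 227 CPM in WT. It was higher without overlap, by a much smaller amount, at 0.25 (SE 0.04, edgeR adjusted p = 2.62e-04).

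Cox6b2 and Cox7b2 are the testis forms of subunits 6b and 7b. Cox6b2 was at 45.3, 47.8 and 40.5 CPM in R783H and 29.4, 31.5 and 27.5 CPM in WT. All R783H values were above all WT values, with a log2 fold change of 0.60 (SE 0.07, edgeR adjusted p = 3.62e-05). Cox7b2 was rare, at 32, 25 and 28 counts in R783H and 6, 5 and 11 in WT, or 1.06, 0.881 and 0.945 CPM against 0.297, 0.204 and 0.516 CPM. It was higher at 1.52 (SE 0.33, edgeR adjusted p = 0.00170). The common forms were not called: Cox6b1 was at 181, 202 and 175 CPM in R783H and 197, 199 and 191 CPM in WT (-0.07, SE 0.05). Cox7b was at 137, 137 and 146 CPM against 145, 152 and 149 CPM (-0.09, SE 0.05), and in both genes the groups overlapped.

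Cox4i1, the common form of subunit 4 and the member with the highest CPM per kb in complex IV (1118), was at 802, 956 and 831 CPM in R783H and 867, 861 and 816 CPM in WT. The groups overlapped and it was not called (0.03, SE 0.06), but the fit with the offset called it higher at 0.18. Cox4i2, the lung isoform, was near 1 CPM in all libraries, at 1.26, 1.16 and 1.18 CPM in R783H and 0.990, 1.35 and 1.17 CPM in WT (0.03, SE 0.20). Cox6a1, the liver-type and common form of subunit 6a, was at 290, 328 and 289 CPM in R783H and 272, 265 and 255 CPM in WT. It was higher without overlap, at 0.20 (SE 0.05, edgeR adjusted p = 0.00885). Its muscle isoform Cox6a2 had 0 counts in all 6 libraries.

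Cox6c was at 129, 115 and 133 CPM in R783H and 110, 117 and 118 CPM in WT, with overlap (0.13, SE 0.06), and was called higher with the offset at 0.18. Cox8a was at 206, 241 and 215 CPM in R783H and 229, 235 and 234 CPM in WT, with overlap (-0.07, SE 0.06). The muscle isoform Cox8b and the testis isoform Cox8c had at most 1 count in a library and were not tested. The remaining member called higher, Cox7c, was at 0.35 (SE 0.12), and its call was lost without R783H C, without WT A or without WT C.

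Shares of isoforms were computed per length, as CPM per kb of one form over the sum of the forms of its set. Cox7a1 made up 42.6%, 47.3% and 43.7% of Cox7a1 plus Cox7a2 in R783H and 27.3%, 28.0% and 26.8% in WT. Cox6b2 made up 20.2% ± 0.664 of the subunit 6b forms in R783H and 13.7% ± 0.592 in WT (SD, n = 3 each). For Ndufa4l2 with Ndufa4 the share was 3.67% ± 0.741 against 0.717% ± 0.125, and for Cox7b2 with Cox7b it was 1.26% ± 0.136 against 0.420% ± 0.198. These shares did not overlap between groups. The share of Cox4i2 with Cox4i1 did, at 0.146% ± 0.0188 against 0.144% ± 0.0224. With 3 libraries against 3, an exact two-sided permutation test cannot go below p = 0.1; of 6 shares compared, 5 reached it (0.12 after Benjamini-Hochberg adjustment) and Cox4i2 gave p = 0.8. Lengths are those of the longest annotated transcript, which may not be the one expressed.

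Complex V makes ATP, with a catalytic F1 head, a rotating ring of c subunits in the membrane and a peripheral stalk that holds the head still. Of its 17 members, all tested, 14 were lower, 1 higher and 2 not called, with a median log2 fold change of -0.22. The shares over all tested genes were 30.9% lower and 33.5% higher. The decreases were spread over the enzyme: 4 of 5 head subunits, 4 of 4 stalk subunits, 2 of 3 c-subunit genes and 4 of 5 small membrane subunits. With the length and GC offset 12 were lower and 1 higher, against 37.3% and 30.6% of all genes. With scaling by library size alone 8 were lower and 1 higher, against 25.4% and 40% of all tested genes. Those 8 were 2 head, 3 stalk, 2 c-subunit and 1 small membrane genes. In complex V, 9 calls held in every alternative.

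Atp5b (Entrez 11947), the catalytic beta subunit, had the highest CPM per kb of all members (1352). It was at 2214, 2503 and 2217 CPM in R783H and 2937, 2856 and 2819 CPM in WT. All R783H values were below all WT values, with R783H B nearest to them, and the log2 fold change was -0.31 (SE 0.05, edgeR adjusted p = 3.03e-04). Atp5a1, the alpha subunit, named after its values were seen, was lower at -0.44 (SE 0.06). The stalk subunits Atp5pb, Atp5j, Atp5o and Atp5h were at -0.33, -0.32, -0.21 and -0.16 (SE 0.04 to 0.06). The call of Atp5h was lost in 4 alternatives, and the other 3 kept theirs in all.

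Subunit c is encoded by 3 genes whose mature proteins are the same, and these genes moved in different directions. Atp5g3 (Entrez 228033), the gene with the highest CPM per kb of the 3 (654), was at 374, 415 and 366 CPM in R783H and 579, 563 and 541 CPM in WT. The groups were far apart, with a log2 fold change of -0.54 (SE 0.05, edgeR adjusted p = 5.36e-06). Atp5g1 was at 19.4, 21.2 and 18.8 CPM in R783H and 29.9, 32.1 and 29.0 CPM in WT. It was lower without overlap, at -0.62 (SE 0.07, edgeR adjusted p = 1.48e-05). Atp5g2 was at 9.72, 7.01 and 8.10 CPM in R783H and 6.53, 4.85 and 4.73 CPM in WT. It was higher without overlap, at 0.63 (SE 0.15, edgeR adjusted p = 0.00359), and was the one member of complex V called higher. As a share of the 3 genes per length, Atp5g2 was 2.08% ± 0.429 in R783H and 0.929% ± 0.145 in WT (SD, n = 3 each). Atp5g1 and Atp5g2 each have 2 annotated near copies. The longest match covered 8.7% of the transcript in Atp5g1 and 88.2% in Atp5g2. The part of shared reads in the Atp5g2 result was not tested.

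Atp5l, subunit g of the membrane part, was at 3.79, 3.17 and 3.75 CPM in R783H and 6.73, 4.89 and 3.75 CPM in WT. WT A was highest and the WT C value was no higher than that of R783H A, so the groups overlapped. It was called lower at -0.51 (SE 0.19, edgeR adjusted p = 0.0316), but the call was lost without WT A, without WT B, at equal depth and with scaling by library size alone. Atp5l has 10 annotated near copies.

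The level of members differed widely. Per kb of transcript, Atp5b, Cox4i1, Atp5g3, Atp5a1, Cox6a1 and Ndufa4 were highest, at 1352, 1118, 654, 592, 496 and 418 CPM per kb, and Sdhd and Cycs were near 1 CPM per kb. A near copy, here any match in another annotated gene at the limits given for Cycs, was found for 29 members. Such a match can be short and need not be a copy of the gene. The longest covered 6.5% of the transcript in Atp5md and 6.1% in Ndufaf7. In other members it covered most of the transcript, such as 100% in Ndufb4c, 88.2% in Atp5g2, 76.7% in Atp5o and 75.7% in Ndufs3. Other members shared an exon with another gene, so that 51 of 97 had either. Of the 46 members with neither, 44 were tested, and 21 were lower and 7 higher, with a median log2 fold change of -0.12. In the fit with the offset 14 of 43 were lower and 11 higher, at a median of -0.048. Over all genes in that fit, 37.3% were lower and 30.6% higher, at a median of -0.03. With library size alone 16 were lower and 12 higher, at a median of -0.037. Over all tested genes that scaling gave 25.4% lower and 40% higher, at a median of 0.11.

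The 13 subunits encoded in mitochondrial DNA showed both directions. Of these, 7 were called higher and 3 lower in R783H, against 33.5% and 30.9% of all tested genes. Their median log2 fold change was 0.53. The complex IV subunit mt-Co1 was at 9424, 9113 and 9354 CPM in R783H and 5740, 6019 and 6006 CPM in WT (0.65, SE 0.04, edgeR adjusted p = 2.52e-07). The other complex IV subunits mt-Co2 and mt-Co3 were higher too, at 0.69 (SE 0.09) and 1.12 (SE 0.11). In complex I, mt-Nd4, mt-Nd5 and mt-Nd6 were higher, at 0.53, 0.81 and 0.86, while mt-Nd1, mt-Nd2 and mt-Nd3 were lower, at -0.44, -0.25 and -0.65. In complex V, mt-Atp6 was higher at 0.65 (SE 0.15). The remaining 3, mt-Nd4l, mt-Cytb and mt-Atp8, were not called. These RNAs were read after poly(A) selection, neighbouring genes overlap, mt-Nd5 and mt-Nd6 share sequence on opposite strands, and 9 of the 13 have annotated near copies outside the mitochondrial genome.

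**Figure D4:**
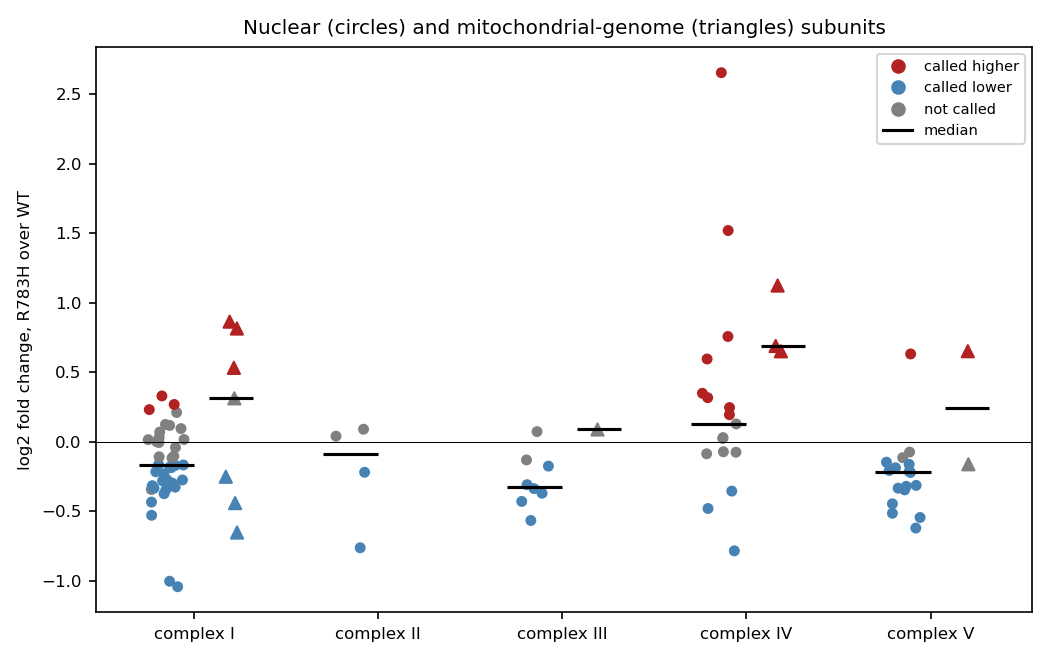
Log2 fold change of R783H over WT (y axis) of nuclear-encoded subunits (circles) and mitochondrial-genome subunits (triangles) by complex (x axis); colours give the call and the short lines the medians. The nuclear medians lie below 0 in complexes I, II, III and V, and all 3 mitochondrial-genome triangles of complex IV lie above 0.

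Genes that build or serve the chain were examined as lists. Of the 58 tested assembly factors of the 5 complexes, 32 were lower and 8 higher, with a median log2 fold change of -0.19. Over all tested genes 30.9% were lower and 33.5% higher. The 8 Ndufaf members are part of that list, and without them 28 of 50 were lower and 8 higher. With the length and GC offset 31 of the whole list were lower and 7 higher, against 37.3% and 30.6% of all genes. By complex, the largest decreases were in Dmac1 for complex I (-0.69, SE 0.07), Sdhaf1 for complex II (-0.36, SE 0.08), Uqcc3 for complex III (-0.67, SE 0.07), Coa6 for complex IV (-0.60, SE 0.07) and Tmem242 for complex V (-0.50, SE 0.07). The copper chaperone Sco2 had 0 counts in all libraries. Its exons overlap those of Tymp on the same strand and Ncaph2 on the opposite strand. The part of that overlap in its 0 counts was not tested.

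Of 14 tested regulators of respiratory genes and mitochondrial transcription, 7 were lower and 1, Gabpb2, was higher. Over all tested genes 30.9% were lower and 33.5% higher. With the length and GC offset 8 were lower and 1, a gene other than Gabpb2, was higher, against 37.3% and 30.6% of all genes. Gabpb2, a subunit of the GABP factor picked after its values were seen, was at 0.21 (SE 0.08), its groups overlapped in CPM, and its call was lost in 8 of 17 alternatives. In the fit with the offset it was called lower, at -0.11. Yy1, Tfam and Pprc1 had the largest changes. Yy1, a zinc-finger transcription factor, had 140 ± 8.87 CPM in R783H against 185 ± 3.10 CPM in WT (-0.40, SE 0.05, edgeR adjusted p = 4.26e-05). Tfam, which packages mitochondrial DNA and starts its transcription, was at 80.0 ± 2.85 against 102 ± 0.253 CPM (-0.35, SE 0.05, edgeR adjusted p = 4.84e-05). Pprc1, a coactivator related to PGC-1, was at -0.26 (SE 0.04).

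Of 13 citric acid cycle genes, 5 were lower and 1 higher, with a median of -0.07, a count of lower genes near the 30.9% of all tested genes. With the offset 6 were lower and 2 higher, and with library size alone 4 were lower and 4 higher, at a median of 0.016. Mdh2, malate dehydrogenase, was lower at -0.54 (SE 0.06), Dld was lower at -0.36 (SE 0.05), and Suclg2, a subunit of GDP-forming succinyl-CoA ligase, was higher at 0.39 (SE 0.05). Of 19 genes of protein import, folding and inner-membrane structure, 15 were lower and 2 higher, with a median of -0.35. The shares over all tested genes were 30.9% and 33.5%. Timm23, the channel of the inner-membrane import machinery, had 27.7 ± 1.84 CPM in R783H against 57.4 ± 4.58 CPM in WT (-1.05, SE 0.07, edgeR adjusted p = 4.44e-07). The prohibitin Phb was at 84.3 ± 5.99 against 163 ± 7.53 CPM (-0.95, SE 0.06), and the chaperonin Hspd1 at 591 ± 33.2 against 961 ± 11.5 CPM (-0.70, SE 0.05; SD, n = 3 each). With the length and GC offset 16 of the 19 were lower and 0 higher, against 37.3% and 30.6% of all genes. Timm23, Phb and Hspd1 all have annotated near copies.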

How the data were processed

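Poly(A)-selected RNA was sequenced in 3 R783H and 3 WT libraries. The authors deposited raw read counts per gene, as whole numbers whose totals differ between libraries, and each column is named after 1 alignment file, per the file headers. The submitters' processing notes name CASAVA 1.4, HISAT2, SAMtools and the build mm10. The counting tool, annotation and use of strand are not given in the sources used here. Entrez identifiers were matched to symbols in RefSeq (GRCm38.p6), for 25275 of 27179 identifiers. Lengths and shared or copied sequence (BLAST 2.17.0, at least 95% identity over at least 100 nt) came from GENCODE M21.

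Genes were kept with edgeR's filterByExpr (minimum count 10, minimum total 15), scaled with TMM factors and tested by quasi-likelihood (edgeR 4.0.16, R 4.3.3), with group as the single term and Benjamini-Hochberg adjustment over 14199 genes. CPM values are counts per 1000000 of the scaled library size. The common biological coefficient of variation was 5.45%. Fold changes are edgeR's fitted log2 ratios of R783H over WT, with the SE taken as their size over the square root of the F statistic; log2 CPM with a prior count of 2 served for the offset and the check of the letters. DESeq2 1.42.0, limma-voom (limma 3.58.1), other scalings, filters, an offset for length and GC content (mgcv 1.9.3), a replicate block and leaving out each library were alternatives. On simulated counts of R783H against WT (14061 genes), edgeR called 91 of 99 genes changed 2-fold and 80 of 99 changed 1.5-fold, with 6 false calls. Far fewer genes were changed there than were called in these libraries, so false calls at that larger share were not tested. A simulated trend with transcript length alone gave 3927 false calls among 14017 genes without the offset and 0 among 13594 with it. That trend had a shape that the offset can fit, so it cannot show whether the offset suits these libraries. Deviations of same-lettered libraries correlated at -0.07 (A), 0.00682 (B) and 0.0851 (C), so the letters were not taken as pairs.

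The members and lists were chosen with earlier results of these data known. Genes given by name are, per complex, up to 4 called members with the largest change among those averaging at least 50 counts in the higher group, the member with the highest level per length, all complex II subunits, Cyc1, Cycs and the isoform sets. From each other list, up to 3 called genes with the largest change and all 13 mitochondrial-genome subunits qualified. Any other gene named was picked after its values were seen. For 1 member, counted in the totals, the values are not reported here.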

Additional observations from a re-analysis of the deposited data

How the results depend on the processing

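The numbers of members called lower (50) and higher (12) and their median log2 fold change (-0.17) were recomputed under each alternative. With scaling by library size alone, 20 members were higher and the median was -0.088. With the length and GC offset, 21 were higher, and also 21 with the replicate block and the offset together. The replicate block without the offset gave 12 higher and 50 lower, so it changed neither count; of the R783H libraries, 1 of 3 (C) correlated best with the WT library of its own letter. Leaving out 1 library at a time gave 11 to 12 higher, 40 to 60 lower and medians from -0.24 to -0.14. Of the 62 called members, 33 lower and 10 higher kept their call in every alternative, and 9 lower ones were not called with the offset; the cause was not tested. Of the genes named in the report, Gabpb2 was called higher and turned to -0.11, called lower, with the offset. Ndufa13, a member called lower at -0.18, turned to 0.02 with the offset and was not called. The other sign changes among genes followed singly were in genes that were not called. With the offset, without and with the block, Sdha went to -0.018 and -0.019 and Cox8a to 0.082 and 0.083; with library size alone Cox6b1 went to 0.0099 and Cox8a to 0.00643. Leaving out single libraries gave -0.045 to 0.051 for Ndufa7, -0.025 to 0.064 for Sdha, -0.077 to 0.062 for Cox4i1, -0.0197 to 0.132 for Sdhb (each lowest without R783H B), -0.072 to 0.15 for Cox4i2 (lowest without WT A) and -0.34 to 6.3e-04 for mt-Atp8 (highest without WT A). Of the other single-gene values, 17 gained and 17 lost a call, and 1358 did neither. Low counts limit Ndufb4c, Cox7b2, Sdhd and Cox4i2 most, the 4 members with the largest SE (0.55, 0.33, 0.23 and 0.20), and 3 libraries per group limit every test.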
